A study of Mus musculus with 15 samples.

Results

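The genes described here are 10 AP-1 and immediate early transcription factors of the mouse: Fos, Fosb, Fosl1, Fosl2, Jun, Junb, Jund, Atf3, Egr1 and Egr2. They were chosen by symbol alone, as the rows of that name among the 24411 genes of the deposited count files, and all 10 were found and passed the filter on low counts. RNA was sequenced from mouse liver in 15 libraries, of which 4 are labelled TdTomato, 6 LATS KO and 5 Yap OE. LATS KO stands for loss of the Hippo pathway kinases LATS, Yap OE for overexpression of the transcriptional coactivator YAP that those kinases restrain, and TdTomato names a red fluorescent protein. TdTomato is the control group here, since the design text of the series names wild type, Lats KO and Yap overexpression. Promoter, delivery, age, sex, time after the manipulation and whether a library is 1 animal are not given in the sources used here. Each p-value therefore reflects no more than the variation among libraries, part of which may be technical.

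AP-1 is a dimer of basic leucine zipper proteins. FOS proteins cannot pair with each other and bind DNA with a JUN partner, while JUN proteins can also pair among themselves, and ATF3 joins the same network. Immediate early genes are those whose transcription starts within minutes of a growth factor, cytokine or stress signal without new protein synthesis, and their mRNAs are short-lived. In the liver, FOS, JUN and EGR1 are best known for their brief surge at the start of regeneration after partial hepatectomy, and the same genes are known to respond to tissue handling.

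Promoter sequences are shown for 4 of these genes, as examples of windows that hold a match close to the start site: those of Fos, Fosb and Atf3, which were called in Yap OE, and that of Jun, the JUN partner, which was not. They were chosen after the windows had been read. Each is the 250 bases upstream of the RefSeq start site in GRCm38.p6 (the mm10 build of the counts), written 5′ to 3′ along the gene. Capitals mark every match on either strand to the motifs searched. The Fos window is chr12:85473640-85473889 on the plus strand, the Fosb window chr7:19310046-19310295, the Jun window chr4:95052223-95052472 and the Atf3 window chr1:191183334-191183583, all but the first on the minus strand.
Fos: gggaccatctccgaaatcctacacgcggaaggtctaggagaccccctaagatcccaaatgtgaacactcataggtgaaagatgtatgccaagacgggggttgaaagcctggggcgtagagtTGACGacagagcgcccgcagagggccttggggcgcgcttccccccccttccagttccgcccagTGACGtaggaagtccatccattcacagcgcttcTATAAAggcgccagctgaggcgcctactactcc
Fosb: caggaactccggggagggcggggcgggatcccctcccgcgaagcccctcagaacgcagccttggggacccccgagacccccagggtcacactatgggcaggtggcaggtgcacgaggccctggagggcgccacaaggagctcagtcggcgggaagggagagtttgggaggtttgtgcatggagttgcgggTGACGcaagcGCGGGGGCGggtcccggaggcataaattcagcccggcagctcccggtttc
Jun: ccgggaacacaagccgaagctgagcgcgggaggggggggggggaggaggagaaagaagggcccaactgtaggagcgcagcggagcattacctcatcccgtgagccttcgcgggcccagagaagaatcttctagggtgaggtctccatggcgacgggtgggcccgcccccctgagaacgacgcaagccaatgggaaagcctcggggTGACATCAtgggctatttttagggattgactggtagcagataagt
Atf3: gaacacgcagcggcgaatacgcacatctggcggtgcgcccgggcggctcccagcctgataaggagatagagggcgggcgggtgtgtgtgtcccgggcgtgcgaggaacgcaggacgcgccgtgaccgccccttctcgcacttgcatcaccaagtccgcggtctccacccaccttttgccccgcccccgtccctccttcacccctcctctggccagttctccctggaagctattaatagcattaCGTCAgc
The capitals in Fos are TGACG, the core of the site bound by CREB and ATF proteins, at −129 to −125 and at −66 to −62 from the start, and TATAAA at −33 to −28. In Fosb they are TGACG at −60 to −56 and a match to GCGNGGGCG, the EGR site, at −50 to −42. In Jun they are TGACATCA at −45 to −38, and in Atf3 CGTCA, which is TGACG read on the other strand, at −7 to −3. The Atf3 window belongs to a start site that lies 34706 bases inside the outermost start of the GENCODE model. Junb holds TGACG at −106 to −102 and Fosl2 the EGR site at −79 to −71, and the Jund and Egr2 windows hold none of the motifs. The Jund and Fosl2 windows belong to starts that lie 1210 and 671 bases from the GENCODE start of the counted gene. TGACG occurs in 17.8% of all 32851 RefSeq windows of this length, TGACATCA in 2.93%, GCGNGGGCG in 4.70% and TATAAA in 12.4%. The full site TGACGTCA, which contains TGACG, the AP-1 site TGANTCA, the TEAD site GGAATG and the CArG box bound by serum response factor were found in 1.55%, 6.75%, 12.6% and 1.47% of windows and in none of the 8 member windows. Sequence further upstream was not searched, and Fosl1 and Egr1 had no window. The lack of a match therefore does not show that a gene lacks the site. TGACG and TGACATCA were added to the search after these windows had been read, so their matches describe the windows only.

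Library quality differed in ways that touch every value below. Gene counts ranged from 6166680 to 28225360 per library. TdTomato 1 and LATS KO 3 stood apart, with 78.5% and 89.9% of reads unmapped where the other 13 libraries had 2.53% to 16.7%, and with 8501 and 9710 genes detected where the others had at least 13372. Mapped reads that met no annotated exon on the counted strand made up 17.2% to 25.8% in LATS KO 3 to 6, against 6.57% and 7.05% in LATS KO 2 and 1. Such reads can lie in introns or between genes. Lats1 was at 0 to 46.0 CPM (counts scaled to a TMM-adjusted library size, median 36.6) in TdTomato and at 0 to 27.4 CPM (median 16.3) in LATS KO. Lats2 was at 0 to 19.6 CPM (median 18.3) and 7.67 to 41.0 CPM (median 17.1), so it was not lower throughout. Neither checks a deletion, since exons outside the deleted part are counted. Yap1 was at 94.9 to 115 CPM in TdTomato and at 146 to 212 CPM in Yap OE. The hepatocyte list (10 genes, Alb and Apoa1 among them) had no gene at 0 in any library. Its median log2 fold changes were −1.35 in Yap OE and −0.55 in LATS KO. Of the 10, 4 were called lower in Yap OE and none in LATS KO, beside 10.8% and 0.973% of all genes. Markers of some other cells moved with the groups. The 9 macrophage and monocyte genes summed to 0.0774 to 8.62 CPM in TdTomato, 102 to 719 CPM in LATS KO and 281 to 488 CPM in Yap OE. The 9 cholangiocyte genes summed to 24.2 to 47.9, 92.1 to 4387 and 3755 to 6222 CPM in the same order. Of 9 stellate cell and fibroblast genes 8 were called higher in Yap OE and 3 in LATS KO, beside 17.9% and 10% of all genes. The 9 summed to 0.0774 to 11.3 CPM in TdTomato, 0 to 21.2 CPM in LATS KO and 23.4 to 159.7 CPM in Yap OE. Of these, Col1a1 and Acta2 had 0 control counts and could not be called lower. Of 6 Kupffer cell genes 5 were called higher in LATS KO, and 4 higher and 1 lower in Yap OE. The 6 summed to 346 to 546 CPM in TdTomato, 49.2 to 648 CPM in LATS KO and 166 to 454 CPM in Yap OE. Most of the TdTomato sum was C6, named after its values were seen, at 337 to 535 CPM there. C6 was the gene called lower in Yap OE (−2.61 on the log2 scale), and its value in LATS KO was −1.39. The other 5 had positive values in both groups, so the sum does not follow them. Of 7 sinusoidal endothelial genes 3 were higher in each group. Of 5 tested neutrophil genes 2 were higher in LATS KO and 1 in Yap OE. No lymphocyte gene was tested, and the 1 erythroid gene tested was lower in Yap OE. The part of these shifts in the levels of the 10 factors was not tested. In bulk tissue, a change in cell numbers and a change in RNA per cell cannot be told apart.

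Differences were tested with edgeR's quasi-likelihood test in 1 fit over all 15 libraries. Two-sided p-values were adjusted by the Benjamini-Hochberg method over the 13055 genes tested, with a threshold of 0.05. In Yap OE, 6 of the 10 factors were higher than in TdTomato: Fos, Fosb, Fosl2, Jund, Atf3 and Egr2. Among all genes tested, 17.9% were called higher in that comparison, 10.8% lower and 28.7% in either direction. In LATS KO only Fosl1 was called, where 11% of all genes were called in either direction, 10% higher and 0.973% lower. Fosl1 and Egr2, with 0 and 4 control counts, passed the filter through the other groups and could hardly be called lower. Between Yap OE and LATS KO none of the 10 was called, against 0.988% of all genes in either direction and 0.498% higher in Yap OE. At an unadjusted p under 0.05 the counts were 5 members in LATS KO, 10 in Yap OE and 1 between them, where all genes gave 25.3%, 39.6% and 14.6%. The median log2 fold change of the 10 was 1.28 in LATS KO and 2.11 in Yap OE, beside 0.13 and 0.17 over all genes tested.

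**Figure D1:**
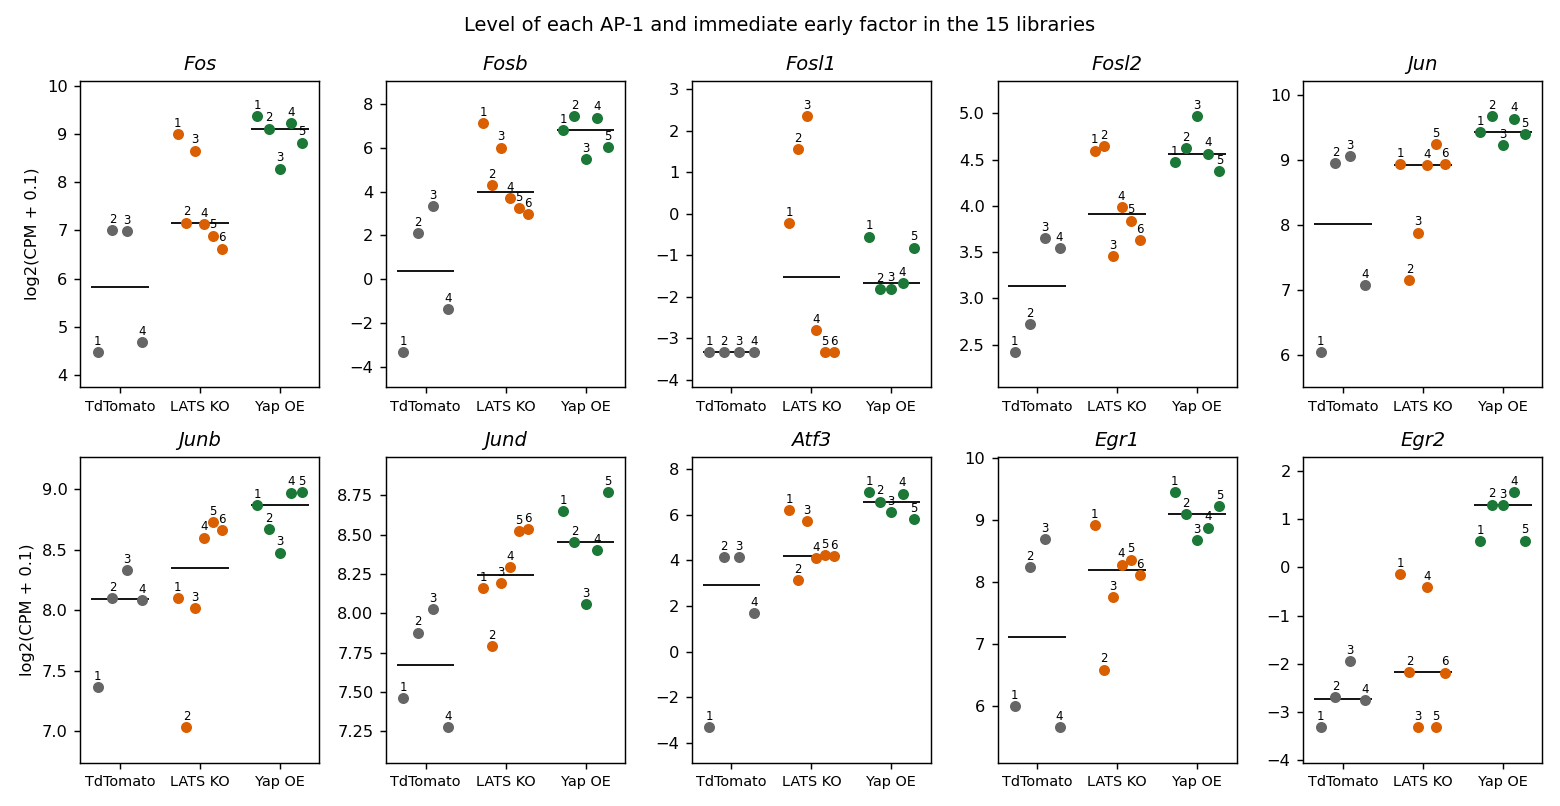
Level of each factor as log2(CPM + 0.1) in the 15 libraries, 1 point per library with its replicate number, with a line at the group median and a separate vertical scale for each gene. The 5 Yap OE libraries lie above all 4 TdTomato libraries for 9 factors, while LATS KO 1 and 3 stand above the other LATS KO libraries for Fos, Fosb and Atf3.

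Fos (chromosome 12, 85473890 to 85477273, plus strand) encodes the inducible partner of JUN. It stood at 22.2, 129, 127 and 25.6 CPM in the controls TdTomato 1 to 4, at 513, 143, 403, 140, 119 and 98.6 CPM in LATS KO 1 to 6, and at 661, 554, 311, 597 and 453 CPM in Yap OE 1 to 5. Every Yap OE library was above every TdTomato library, and LATS KO 1 and 3 reached the Yap OE range while LATS KO 5 and 6 lay below the highest TdTomato library. Fos rose in Yap OE by 2.77 ± 0.65 (SE) on the log2 scale (adjusted p = 0.0074). Its difference in LATS KO was 1.64 ± 0.60 (adjusted p = 0.095).

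Fosb (chromosome 7, 19302696 to 19310051, minus strand), the closest relative of Fos, ran at lower levels. It was at 0, 4.19, 10.1 and 0.287 CPM in the controls TdTomato 1 to 4, at 139, 19.4, 64.7, 12.9, 9.44 and 7.75 CPM in LATS KO 1 to 6 and at 113, 174, 44.8, 168 and 65.7 CPM in Yap OE 1 to 5. Yap OE did not overlap TdTomato, and 4 of 6 LATS KO libraries exceeded the highest TdTomato library. The rise in Yap OE was 4.97 ± 1.26 (adjusted p = 0.010), and 6.21 (adjusted p = 0.014) without TdTomato 3, the control with the highest level. In LATS KO the difference was 3.54 ± 1.16 (adjusted p = 0.063), and it passed the test without LATS KO 6 (3.76, adjusted p = 0.046).

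Fosl2 (chromosome 5, 32135801 to 32157842, plus strand) encodes FRA2, a FOS relative that lacks the transactivation domain of FOS. Its range was narrow: 5.27, 6.51, 12.5 and 11.5 CPM in TdTomato 1 to 4, 10.9 to 24.9 CPM in LATS KO with a median of 14.99, and 22.1, 24.5, 31.2, 23.6 and 20.7 CPM in Yap OE 1 to 5. LATS KO 1 and 2 lay within the Yap OE range, LATS KO 4 and 5 between the 2 other groups, and LATS KO 3 and 6 within the TdTomato range. Fosl2 rose in Yap OE by 1.45 ± 0.36 (adjusted p = 0.0092). In LATS KO the difference of 0.93 ± 0.34 did not pass the test (adjusted p = 0.095). It passed without LATS KO 3 (1.03, adjusted p = 0.041), with DESeq2 (1.02, adjusted p = 0.0067) and with voom (0.84, adjusted p = 0.016).

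Fosl1 (chromosome 19, 5447547 to 5455946, plus strand) encodes FRA1, best known from migrating and transformed epithelial cells. It had 0 counts in all 4 TdTomato libraries. LATS KO 1 to 6 held 14, 93, 45, 1, 0 and 0 counts, which is 0.758, 2.86, 5.00, 0.0438, 0 and 0 CPM. Yap OE 1 to 5 held 19, 5, 5, 6 and 12 counts, between 0.185 and 0.585 CPM. All but 1 of the LATS KO counts came from LATS KO 1 to 3, whereas every Yap OE library held some.

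Against a floor of 3 counts over the TdTomato group, Fosl1 was at least 28.8-fold higher in LATS KO and at least 7.23-fold higher in Yap OE. The bound in LATS KO was 15.8-fold without LATS KO 2 and 22.0-fold without LATS KO 3, and it covers counting error only. Fosl1 passed the test in LATS KO (adjusted p = 0.046) and not in Yap OE (adjusted p = 0.079). The call in LATS KO was lost when any 1 of TdTomato 1 to 4, LATS KO 1 to 3 or Yap OE 1 to 5 was left out (adjusted p from 0.062 to 0.10), and among these runs remained only without LATS KO 4, 5 or 6. With limma voom the value was 0.87 (adjusted p = 0.38). Of the 2033 exonic bases of Fosl1, 1163 lie under Ccdc85b on the opposite strand. TdTomato held 70 to 225 counts of Ccdc85b with no count of Fosl1, so in those libraries reads of Ccdc85b were not counted as Fosl1. In the unstranded column, where reads shared by both genes are not counted, the 3 LATS KO libraries with the most Fosl1 held 3, 30 and 0 counts.

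The JUN genes started from higher levels and differed less. Jun (chromosome 4, 95049034 to 95052222, minus strand, a single exon), the main inducible JUN protein, was at 65.9, 493, 532 and 134 CPM in TdTomato 1 to 4. LATS KO 1 to 6 gave 489, 142, 236, 485, 609 and 491 CPM, and Yap OE 1 to 5 gave 689, 816, 601, 796 and 675 CPM. Each Yap OE library was above every control, but the controls themselves spread 8.08-fold, and 1 of 6 LATS KO libraries exceeded the highest of them. The difference in Yap OE was 1.22 ± 0.54 (adjusted p = 0.10) and in LATS KO 0.42 ± 0.51 (adjusted p = 0.67), and neither passed the test.

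Junb (chromosome 8, 84974484 to 84978718, minus strand) encodes a JUN protein that often limits JUN activity. It was at 164, 275, 322 and 271 CPM in the controls TdTomato 1 to 4 and at 468, 407, 356, 502 and 504 CPM in Yap OE 1 to 5, without overlap. LATS KO ranged from 131 to 425 CPM with a median of 331, on both sides of the controls. The difference in Yap OE was 0.79 ± 0.31 (adjusted p = 0.071), and it passed the test without LATS KO 2, the lowest LATS KO library (0.80, adjusted p = 0.025).

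Jund (chromosome 8, 70698949 to 70700616, plus strand, a single exon) is the JUN gene that is active in resting cells. TdTomato 1 to 4 stood at 176, 235, 261 and 155 CPM and Yap OE 1 to 5 at 402, 350, 267, 338 and 437 CPM, so that the lowest Yap OE library lay just above the highest control. In LATS KO the range was 221 to 371 CPM, and 5 of 6 libraries exceeded the highest control. Jund rose in Yap OE by 0.79 ± 0.24 (adjusted p = 0.021), the smallest of the 6 rises. Without TdTomato 4 it did not pass the test (0.68, adjusted p = 0.073). Parts of Jun, Junb and Jund lie under genes on the opposite strand (689, 173 and 919 exonic bases), and the counts used are those of their own strand.

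**Figure D2:**
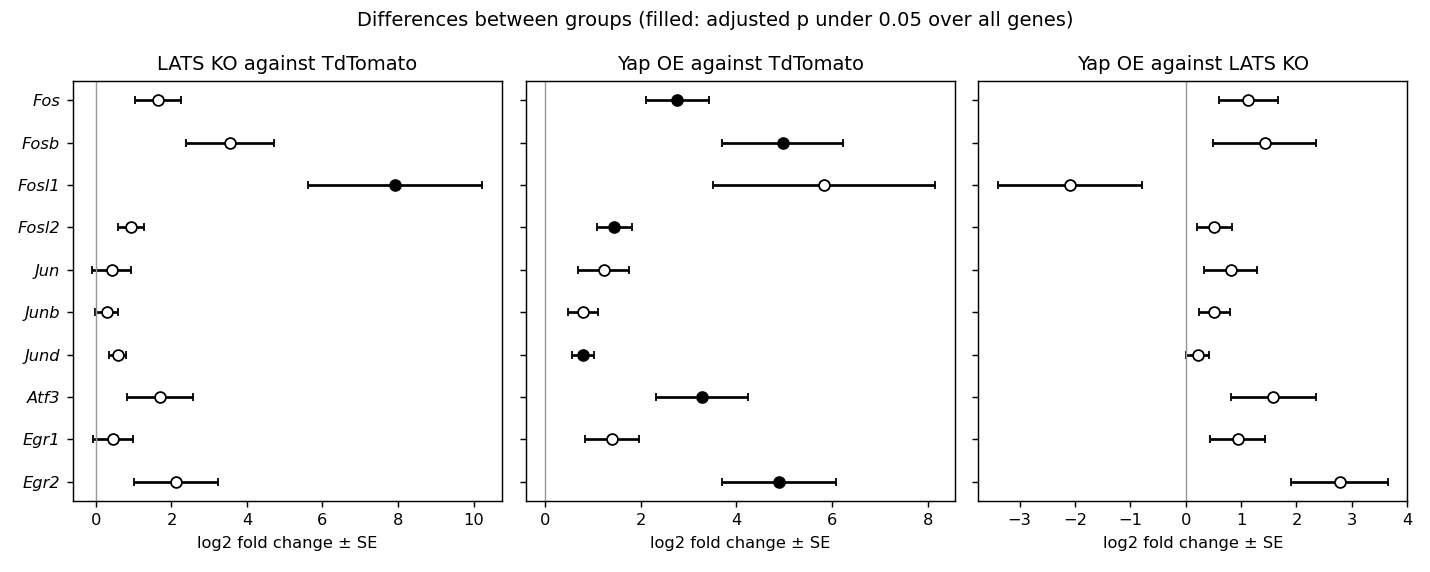
Log2 fold change (points) with its standard error (bars) of the 10 factors in the 3 comparisons, each with its own horizontal scale, filled where the adjusted p is under 0.05. Filled points are Fosl1 in LATS KO and Fos, Fosb, Fosl2, Jund, Atf3 and Egr2 in Yap OE, and none between Yap OE and LATS KO, where Fosl1 alone lies below 0.

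Per kilobase of exon, which allows genes to be compared, the order of levels shifted between groups. Group medians in TdTomato were 123, 119 and 98.3 CPM per kb for Jund, Junb and Jun, 40.5 for Egr1 and 32.3 for Fos, and neighbours in that order overlapped. Atf3 followed at 4.82 CPM per kb with no overlap with Fos, and the medians of Fosl2, Fosb, Egr2 and Fosl1 were all below 1. In LATS KO the order was led by Jund (182), Jun (153) and Junb (144 CPM per kb), with Egr1 at 65.2 and Fos at 60.1. In Yap OE it was led by Fos at 236 CPM per kb, ahead of Jun (216), Jund (210) and Junb (203), and these 4 overlapped. Egr1 was at 122 and Atf3 at 44.2 CPM per kb, whose ranges did not overlap, while Junb and Egr1 did. Below them Fosb (18.1), Fosl2 (2.43), Egr2 (0.694) and Fosl1 (0.105) were separated from each other in Yap OE.

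Summed by family, FOS transcripts were higher relative to JUN transcripts in every Yap OE library than in any TdTomato library. The ratio of the FOS family sum to the JUN family sum, per kilobase, was 0.0506, 0.135, 0.122 and 0.0480 in TdTomato 1 to 4 and 0.457, 0.414, 0.284, 0.422 and 0.297 in Yap OE 1 to 5. In LATS KO 1 to 3 it was 0.548, 0.291 and 0.513, and in LATS KO 4 to 6 it was 0.124, 0.0898 and 0.0805, within the TdTomato range. Fos itself made up 88.5% to 97.6% of the FOS family in every library. The share of Fosb was at most 2.85% in TdTomato and 5.02% to 10.5% in Yap OE. Within the JUN family, Jun made up 10.5% to 37.3% in TdTomato and 30.6% to 39.8% in Yap OE. As a sum over chosen genes the ratio is given without a test.

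**Figure D3:**
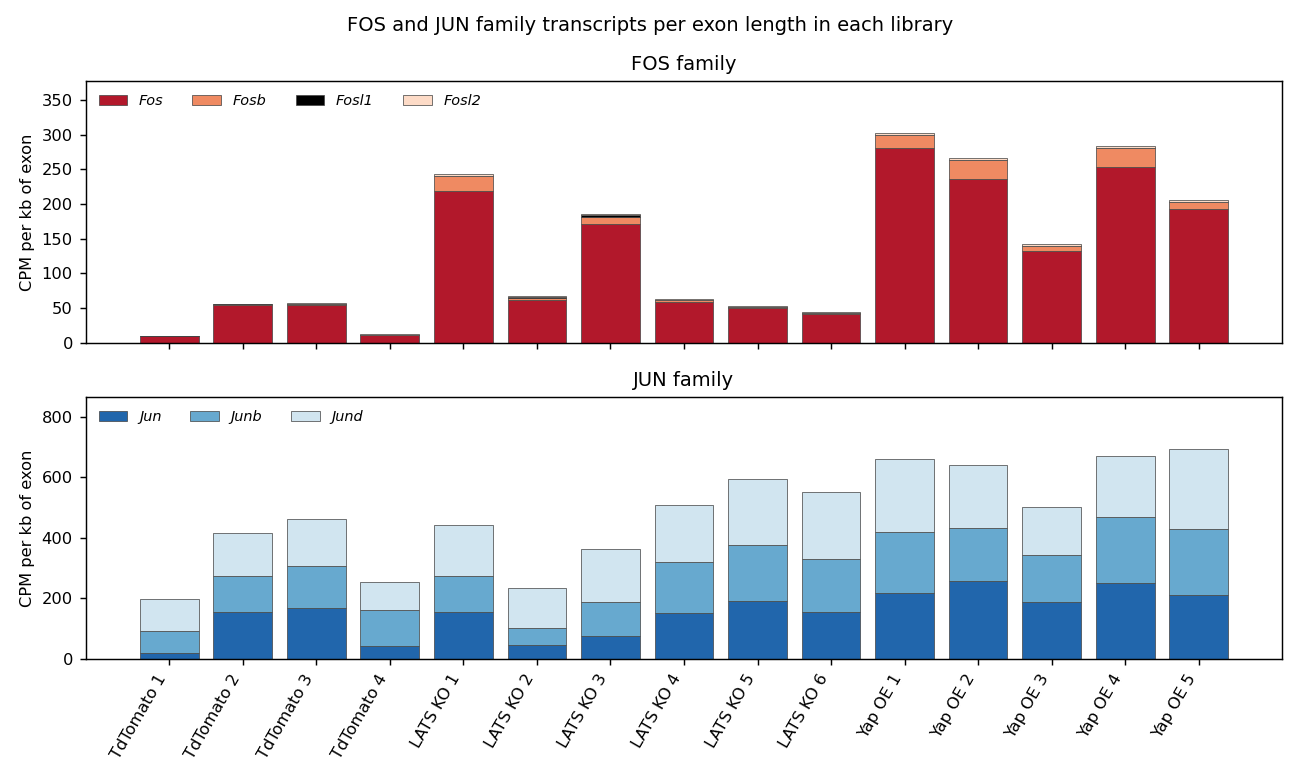
Stacked bars of FOS family (top) and JUN family (bottom) levels, in CPM per kb of exon, for each library. The FOS family sum is 142.8 to 301.9 in Yap OE, 9.99 to 56.7 in TdTomato and 44.4 to 243.2 in LATS KO, and the JUN family sum is 503.2 to 692.4, 197.6 to 463.3 and 233.9 to 595.7 in the same order, and Fos fills most of every upper bar.

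Atf3 (chromosome 1, 191170296 to 191218039, minus strand) encodes a stress-induced repressor of the ATF family that pairs with JUN proteins. It was at 0, 17.6, 17.7 and 3.16 CPM in the controls TdTomato 1 to 4, at 72.9, 8.75, 52.8, 17, 18.5 and 18 CPM in LATS KO 1 to 6 and at 127, 95.2, 69.1, 121 and 56.5 CPM in Yap OE 1 to 5. The Yap OE libraries were all above the controls, and LATS KO 1 and 3 were again the high libraries of their group, the other 4 lying close to TdTomato 2 and 3 or below. Atf3 rose in Yap OE by 3.29 ± 0.96 (adjusted p = 0.020). Without TdTomato 4 it did not pass the test (2.99, adjusted p = 0.061). In LATS KO the difference was 1.70 ± 0.88 (adjusted p = 0.25).

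Egr1 (chromosome 18, 34859823 to 34864984, plus strand), a zinc finger factor widely used as a marker of the immediate early response, was not called. It was at 63.5, 300, 411 and 50.03 CPM in the controls TdTomato 1 to 4, at 481, 95.8, 216, 310, 328 and 275 CPM in LATS KO 1 to 6 and at 698, 547, 408, 469 and 597 CPM in Yap OE 1 to 5. It is the 1 factor whose Yap OE range met that of TdTomato, through Yap OE 3 and TdTomato 3. The difference in Yap OE was 1.40 ± 0.56 (adjusted p = 0.075), and 1.98 (adjusted p = 0.030) without TdTomato 3. In LATS KO it was 0.46 ± 0.53 (adjusted p = 0.65).

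Egr2 (chromosome 10, 67535475 to 67542188, plus strand), an EGR1 relative known from myelinating glia and from macrophages and lymphocytes, was also rare. It had 4 counts in TdTomato, 36 in LATS KO and 286 in Yap OE. Its levels were 0, 0.0551, 0.159 and 0.0479 CPM in TdTomato 1 to 4, 0 to 0.812 CPM in LATS KO, and 1.35, 2.37, 2.36, 2.86 and 1.37 CPM in Yap OE 1 to 5. Yap OE overlapped neither other group. Egr2 rose in Yap OE by 4.89 ± 1.19 (adjusted p = 0.0087), and by 5.59 (adjusted p = 0.018) without TdTomato 3, which held 2 of the 4 control counts. Because Egr2 is known from macrophages, the macrophage list stands beside this result. All 9 of its genes were called higher in both LATS KO and Yap OE, beside 10% and 17.9% of all genes. Ms4a7, 1 of the 9, had 0 counts in every control and could not be called lower. The part of these cells in the Egr2 result was not tested.

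The controls were not uniform, and the same libraries were high or low across factors. TdTomato 3 was the highest control for 8 of the 10 factors and TdTomato 1 the lowest for 7, with Fosl1 at 0 in all 4. TdTomato 4, with 13.3% of its reads unmapped, was at 25.6 CPM for Fos and 50.03 CPM for Egr1, close to TdTomato 1. In LATS KO, replicate 1 was highest for 5 factors (Fos, Fosb, Atf3, Egr1 and Egr2) and replicate 2 lowest for 5 (Jun, Junb, Jund, Atf3 and Egr1). LATS KO 2 also held the highest macrophage sum of its group at 719 CPM. LATS KO was not uniform either. The cholangiocyte sum was 4387, 1939 and 1346 CPM in LATS KO 1 to 3, and 202, 92.1 and 128 CPM in LATS KO 4 to 6. Macrophage sums did not divide in this way. Ranges and SEs given for LATS KO span both sets of libraries. In Yap OE, replicate 3 was lowest for 6 factors. Spread within a group was widest in TdTomato for Jun and Egr1, 8.08-fold and 8.21-fold from lowest to highest, against 1.36-fold and 1.71-fold in Yap OE.

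**Figure D4:**
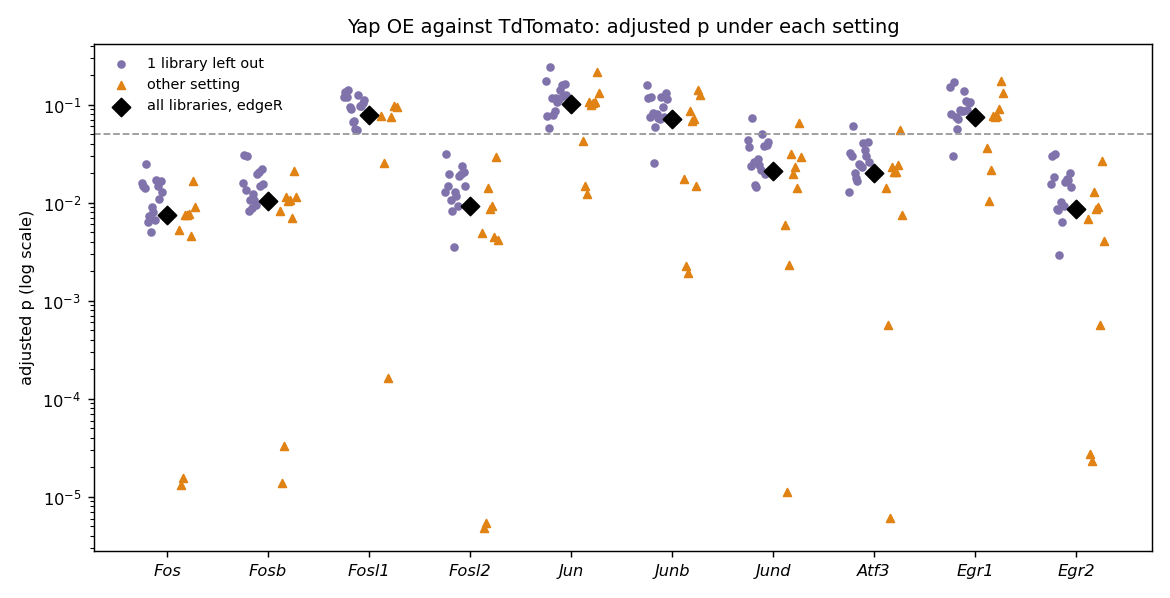
Adjusted p (log scale) of each factor in Yap OE against TdTomato, with all libraries (diamonds), with each library left out in turn (circles) and under the other settings (triangles), and a dashed line at 0.05. Every mark of Fos, Fosb, Fosl2 and Egr2 lies under the line, while Jund and Atf3 cross it at 2 marks each.

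Yap OE and LATS KO were compared directly to ask whether the 2 manipulations differed. No factor was called, and only Egr2 had ranges that did not overlap, which 4.76% of all genes showed in the same direction. The largest difference was that of Egr2, 2.78 ± 0.87 higher in Yap OE (adjusted p = 0.15, 95% interval 0.88 to 4.68). For Fos it was 1.13 (−0.04 to 2.29), for Fosb 1.42 (−0.59 to 3.43) and for Atf3 1.58 (−0.10 to 3.27), with adjusted p from 0.34 to 0.54. The value of Fosl1 alone was negative, at −2.09 ± 1.30 (adjusted p = 0.53, −4.92 to 0.74), a value that rests on LATS KO 1 to 3. Jund had the narrowest interval, 0.22 (−0.24 to 0.67). Intervals this wide leave room for a difference of several fold in either Fosb or Egr2 and do not show that the groups are alike. Without both TdTomato 1 and LATS KO 3, Egr2 was called (2.56, adjusted p = 0.033). Because LATS KO and Yap OE were each set against the same 4 controls, their values against TdTomato are given side by side and not as separate evidence. In Yap OE, 9 of the 10 factors had ranges wholly above the controls, where 28.3% of all genes did, and in LATS KO none had, where 6.65% did.

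Other immediate early genes were read from a list of 35, of which 32 were tested. In Yap OE 19 (59.4%) were higher and 2 (6.25%) lower (Btg1 and Gadd45g), beside 17.9% and 10.8% of all genes tested. In LATS KO 12 (37.5%) were higher and none lower, beside 10% and 0.973% of all genes. Dusp2 and Ier5l, with 0 and 2 control counts, passed the filter through the other groups and could hardly be called lower. The medians of the list were 1.41 in Yap OE and 0.94 in LATS KO on the log2 scale. Rhob, a small GTPase, was at 14.6 to 23.0 CPM in TdTomato, 42.1 to 295 CPM in LATS KO and 176 to 336 CPM in Yap OE, and rose by 2.58 ± 0.52 in LATS KO (adjusted p = 0.0082) and 3.44 ± 0.55 in Yap OE (adjusted p = 0.0016). Ctgf, a matricellular protein gene also known as a direct YAP target, was at most 0.556 CPM in TdTomato and at 265 to 465 CPM in Yap OE. It was at 1811, 2485 and 3136 CPM in LATS KO 1 to 3, and at 82.7, 41.7 and 20.6 CPM in LATS KO 4 to 6. Mcl1, an anti-apoptotic BCL2 relative, rose by 0.83 ± 0.23 in LATS KO (adjusted p = 0.031) and 1.37 ± 0.24 in Yap OE (adjusted p = 0.0023). The call of Mcl1 in LATS KO was lost without TdTomato 1, 2 or 4 or LATS KO 1 or 2 (adjusted p from 0.063 to 0.10). Ppp1r15a, a stress phosphatase subunit, rose in Yap OE by 1.41 ± 0.26 (adjusted p = 0.0027). The count in LATS KO was 6 without TdTomato 2 and 5 without TdTomato 4.

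**Figure D5:**
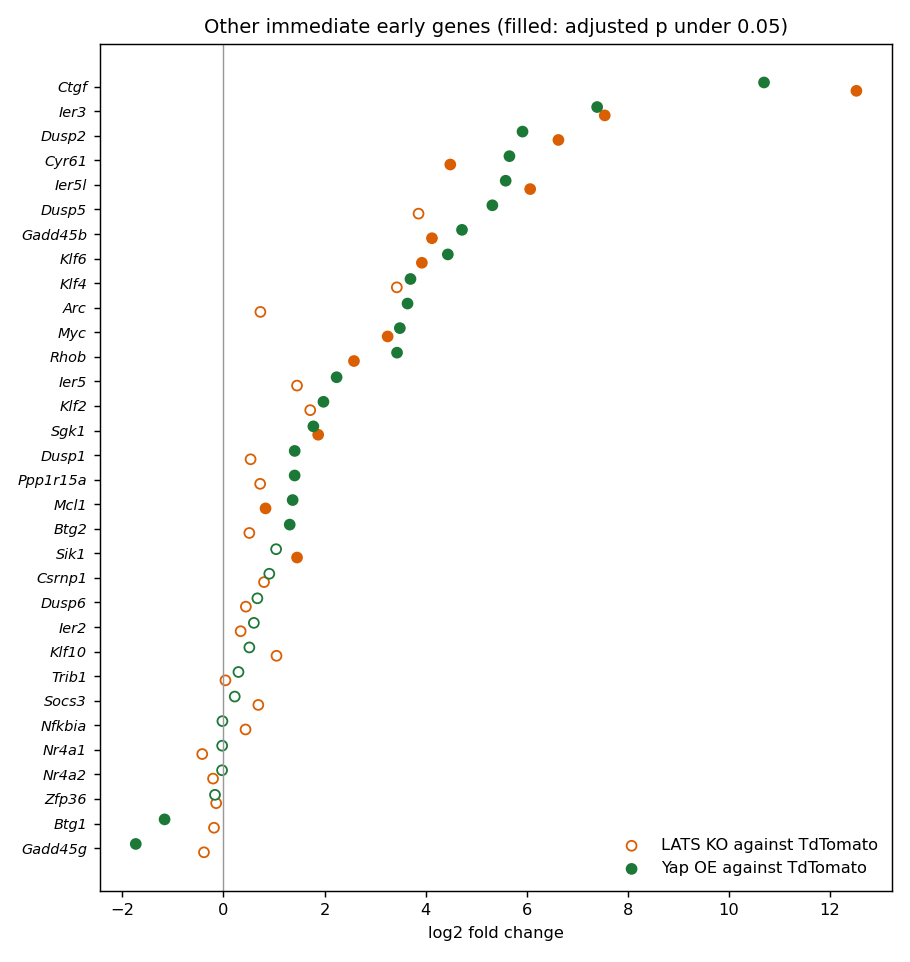
Log2 fold change of the 32 tested other immediate early genes in LATS KO (orange) and in Yap OE (green) against TdTomato, sorted by the value in Yap OE, filled where the adjusted p is under 0.05. Both comparisons use the same 4 controls, and 19 green points are filled on the right of 0 and 2 on the left, with 12 orange points filled on the right.

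Of 18 other AP-1 and related bZIP factors, 16 were tested, and 4 (25%) were higher in LATS KO (Batf3, Jdp2, Maf and Maff), beside 10% of all genes. In Yap OE the same 4 and Creb5 were higher (31.25%) and 3 were lower (18.75%), beside 17.9% and 10.8% of all genes. Maf and Creb5, like Btg1, Gadd45g, Map2k2 and Hspe1, are named only to account for these counts, after their values were seen. The median log2 fold changes of the 16 were 0.09 and 0.08, below those of all genes tested. Jdp2, a JUN dimerization partner that represses AP-1 sites, was at 0 to 0.166 CPM in TdTomato, 0.361 to 40.0 CPM in LATS KO and 11.6 to 22.7 CPM in Yap OE, and rose by 7.41 ± 1.36 (adjusted p = 0.0062) and 7.82 ± 1.39 (adjusted p = 0.0023). Without TdTomato 2, the control with the highest level, the values were 8.20 and 8.60, and without LATS KO 3 the first was 6.69. Batf3, a factor known from dendritic cells, had 0 control counts and was at least 20.9-fold higher in LATS KO and at least 9.70-fold higher in Yap OE. These bounds cover counting error only, and LATS KO 3 was at 0 CPM. In the edgeR test its adjusted p was 0.015 and 0.013. With 0 control counts, Batf3 and Creb5 could not be called lower. Maff, a small MAF protein, rose by 1.48 ± 0.38 (adjusted p = 0.022) and 2.67 ± 0.41 (adjusted p = 0.0015), the first of which was lost without TdTomato 2, 3 or 4 (adjusted p = 0.075, 0.054 and 0.077).

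Upstream of these genes, serum response factor with its ternary complex partners activates Fos and Egr1, and MAP kinases drive both. Of 8 such factors and regulators none was called in LATS KO and 2 (25%) were higher in Yap OE, beside 10% and 17.9% of all genes called higher. These were Elk3 (2.95 ± 1.01, adjusted p = 0.039), a ternary complex factor, and Nab2 (0.72 ± 0.20, adjusted p = 0.014), a corepressor of EGR proteins. The call of Elk3 was lost without TdTomato 2, 3 or 4 or any 1 Yap OE library (adjusted p from 0.059 to 0.077). Of 14 tested MAP kinase genes 1 was higher in LATS KO (Mapk11), and 3 were higher (Mapk3, Mapk11 and Mapk13) and 2 lower (Map2k2 and Map2k3) in Yap OE. These shares, 7.14% higher in LATS KO and 21.4% higher and 14.3% lower in Yap OE, lie near the 10%, 17.9% and 10.8% of all genes. Mapk3, which encodes ERK1, rose in Yap OE by 1.15 ± 0.21 (adjusted p = 0.0024), a call that held without each library. Map2k3, an activator of p38 kinases, fell by 0.68 (SE 0.23, adjusted p = 0.037), which was lost without TdTomato 1 or 2 or Yap OE 1, 2, 3 or 4 (adjusted p from 0.056 to 0.092). Mapk11, a p38 kinase gene, rose by 3.45 ± 0.95 in LATS KO (adjusted p = 0.030) and 3.31 ± 0.96 in Yap OE (adjusted p = 0.019), from at most 0.239 CPM in the controls. The first call was lost without TdTomato 1, 2 or 3 or LATS KO 2 (adjusted p from 0.052 to 0.097) and the second without TdTomato 2 (adjusted p = 0.057), and without TdTomato 4 the values were 4.48 and 4.35.

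Downstream, 15 of 20 genes described as AP-1 targets were tested, and none was lower in either group. In LATS KO 12 (80%) were higher and in Yap OE 11 (73.3%), beside 10% and 17.9% of all genes. Control counts were 0 for Mmp12 and Timp1, 1 for Plau and Lif, and 2 for Plaur, Ccl2 and Mmp9. These genes passed the filter through the other groups and could hardly be called lower. Their direction was largely fixed in advance, so the shares of all genes are not a like comparison. The median log2 fold changes of the 15 were 6.58 and 6.08. Cd44, a hyaluronan receptor, was at most 0.287 CPM in TdTomato, at 5.05 to 53.0 CPM in LATS KO and at 6.52 to 10.7 CPM in Yap OE, and rose by 7.23 ± 0.96 (adjusted p = 0.0027) and 6.08 ± 0.93 (adjusted p = 0.0014). Without TdTomato 4 these were 8.14 and 6.996. Ccnd1, which encodes cyclin D1, rose by 2.95 ± 0.57 (adjusted p = 0.0072) and 4.99 ± 0.64 (adjusted p = 6.1e-04). Plau, a urokinase gene, had 1 control count, and the ratio of its CPM was 724 in LATS KO (exact 95% interval 130 to 28617) and 1240 in Yap OE (222 to 49008). These intervals cover counting error only and not the spread among libraries. Plau ran from 0.901 to 26.6 CPM in LATS KO and from 6.92 to 35.4 CPM in Yap OE. In the edgeR test its adjusted p was 0.0046 and 0.0013. Spp1, which encodes osteopontin, rose by 5.51 ± 1.08 (adjusted p = 0.0076) and 7.37 ± 1.19 (adjusted p = 0.0017), and by 4.61 in LATS KO without LATS KO 1. Spp1 is also on the cholangiocyte list, and Plau, Cd44 and Spp1 are known from macrophages and bile duct cells as well. The part of those cells was not tested.

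Heat shock genes, a stress response apart from AP-1, were not called higher in either group. Of 12 tested, 1 (8.33%) was lower in LATS KO (Hsph1), beside 0.973% of all genes. In Yap OE 3 (25%) were lower (Hspd1, Hspe1 and Hspa4), beside 10.8% of all genes. The call of Hspa4 was lost without TdTomato 2, 3 or 4 or Yap OE 1, 2 or 4 (adjusted p from 0.051 to 0.081). The medians of the 12 were −0.65 in LATS KO and −0.67 in Yap OE. In each comparison 2 of the 12 had a positive value. Among them was Hspa1a, named after its values were seen, at 1.63 ± 0.97 in LATS KO (adjusted p = 0.33) and 2.65 ± 1.03 in Yap OE (adjusted p = 0.067). Hspa1a was at 0 to 1.82 CPM in TdTomato and 3.03 to 6.15 CPM in Yap OE. Hspd1, a mitochondrial chaperonin, fell in Yap OE by 1.23 on the log2 scale (SE 0.23, adjusted p = 0.0030). Hsph1, a cytosolic chaperone, fell in LATS KO by 2.15 (SE 0.47, adjusted p = 0.012). Hspb1, a small heat shock protein gene, was the 1 gene of the 6 pathway lists read beside the members that was called between the manipulated groups, 1.89 higher in Yap OE than in LATS KO (adjusted p = 0.042), and that call was lost without TdTomato 2, any of LATS KO 1, 4, 5 and 6 or any 1 Yap OE library (adjusted p from 0.051 to 0.14).

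The genes whose levels followed each factor most closely were read as a description, over 15 libraries that share the group differences and the 2 low-quality libraries, among 9395 genes with a mean of at least 5 CPM. Jun was closest to Btg2 (Pearson r = 0.97 of log2 CPM), an antiproliferative immediate early gene, followed by Gdf15 (0.92), and Egr1 was closest to the same pair (0.92 and 0.91). Fos was closest to Mta1 (0.94) and then Ptprs (0.93), followed by Dusp1, a MAP kinase phosphatase and immediate early gene, also at 0.93. Fosl2 was closest to Osmr (0.96), the oncostatin M receptor, and Junb to Atp1b1 (0.88) and then Ier2 (0.87). The nearest genes were Adamts10 (0.95) for Fosb, Hspa14 (0.97) for Fosl1, Gstm1 (0.85) for Jund, Zfp111 (0.95) for Atf3 and Vldlr (0.92) for Egr2. For Atf3 the value fell to 0.82 without TdTomato 1 and LATS KO 3, while for Jund it was 0.91.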

How the data were processed

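The authors deposited raw counts of reads per gene for each library, as whole numbers in STAR's layout with an unstranded column and 1 column per strand. The tools named in the submitters' processing notes are STAR, Trimmomatic and FastQC, with mm10 as the genome, and versions and settings are not given in the sources used here. Per the labels' protocols the poly(A) libraries were directional. The extraction text there describes mice of another design, so nothing on animals was taken from it. The reverse-strand counts were used here, since the forward column held 0.966% to 1.99% of strand-assigned counts. Lines that name no gene (14.2% to 92.5% of reads) stayed out of library sizes and tests.

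Genes were kept with filterByExpr, which left 13055, and tested with edgeR 4.0.16 (TMM, estimateDisp, robust glmQLFit, glmQLFTest, 12 residual degrees of freedom) in R 4.3.3. The SE is the size of the log2 fold change over the root of the F statistic. CPM used TMM-scaled sizes, and CPM per kb the merged exon length of GENCODE M21 (GRCm38). Promoters came from RefSeq (GRCm38.p6) and matched 8 of the 10 symbols. Fosl1 and Egr1 were unmatched. Alternatives tried were DESeq2 1.42.0, RLE factors, limma 3.58.1 voom with quality weights, other filters, the unstranded column, only the groups compared, a replicate block, and libraries left out. The procedure was tested on simulated counts, and replicates of a group differed by more than sampling noise.

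The members, lists, tests and alternatives were chosen with earlier results of these data known. Named genes were all members, the 3 genes closest to each in log2 CPM (prior count 2), and up to 4 genes per pathway list with the smallest adjusted p in any comparison. Of the 3 closest genes, all are given for Fos and 1 or 2 for each other member. The result of 1 gene that the rule would name is not reported here.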

Additional observations from a re-analysis of the deposited data

How the results depend on the processing

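Over 24 alternatives, all log2 fold changes of the 10 factors against TdTomato that could be fitted stayed positive (236 values in LATS KO, 237 in Yap OE). Fos, Fosb, Fosl2 and Egr2 were called in Yap OE under every one. In LATS KO the count of factors called was 2 with RLE factors, 5 with DESeq2, 3 with voom, and 0 with the 1 CPM filter, the unstranded column or only the groups compared (each of which dropped Fosl1 from the genes tested), or without both TdTomato 1 and LATS KO 3. Voom called Fosl2, Jund and Junb and not Fosl1 (0.87, adjusted p = 0.38). In Yap OE it was 10 with DESeq2 and 10 with voom. Between Yap OE and LATS KO it was 1 with DESeq2, 6 with voom and 1 without both libraries, and voom reversed Fosl1 there to 2.14 (adjusted p = 0.0046). The cause of these moves was not tested. With 1 library left out, the counts of factors ran from 0 to 2, 4 to 7, and 0 to 0 in the 3 comparisons. Those of other immediate early genes ran from 5 to 14, 16 to 23, and 0 to 1, and those of all genes from 588 to 1798, 2585 to 4973, and 36 to 389.

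Of all genes, 1438 were called in LATS KO (91.2% of them higher), against 2894 with DESeq2, 3504 with voom (60.2% higher), 1 with only the groups compared and 2245 without both libraries. In Yap OE 3744 were called, against 8872 with voom and 6416 without both libraries. Between Yap OE and LATS KO it was 129, against 779 with DESeq2, 7325 with voom and 1688 without both libraries. Other immediate early genes called were 0 in LATS KO with only the groups compared, and between Yap OE and LATS KO 3 with DESeq2, 19 with voom, 1 with only the groups compared and 3 without both libraries. RLE factors moved the median log2 fold change of all genes in Yap OE from 0.17 to 0.34. Of the named list genes, 9 of 12 calls in LATS KO, 15 of 20 in Yap OE and 0 of 1 between them held without each library.

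Whether the replicate numbers pair libraries is not settled. Of same-numbered pairs, 4 of 13 correlated over 0.1 (range −0.25 to 0.23). Differently numbered pairs were not compared, so this check cannot decide it. With the replicate block, 0 factors, 5 other immediate early genes and 740 genes (78.6% higher) were called in LATS KO, and 13 genes between Yap OE and LATS KO. In Yap OE the block put Jund at 0.72 (adjusted p = 0.066) and Atf3 at 3.67 (adjusted p = 0.055). For Fosl1, Fosb in TdTomato and Egr2, the few counts limit what can be compared.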
